A study of Mus musculus with 24 samples.

Results

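The genes described here are the AP-1 transcription factors and their close partners, namely Fos, Fosb, Fosl1, Fosl2, Jun, Junb, Jund, Atf3, Maff and Batf. They were taken by symbol, after the Ensembl identifiers of the deposited count table had been named from the GENCODE mouse annotation, and make up 10 of the 54838 genes in that table. Poly-A RNA was sequenced from SIM-A9 cells, a spontaneously immortalized mouse microglial line, in 8 groups of 3 libraries. All groups stood in serum-free medium before the exposure, and the exposure itself lasted 2 h. The untreated group is called Control. LPS is bacterial lipopolysaccharide, a ligand of Toll-like receptor 4, which the series uses as its inflammatory positive control. (GT)6 SWCNT are single-walled carbon nanotubes carrying a short GT-repeat DNA, and COOH SWCNT are carboxylated single-walled carbon nanotubes. Fura-2 is a calcium dye, and Di-2-ANEPEQ is a voltage-sensitive styryl dye. The dye called DiBASC2 keeps the spelling of the sample titles, since the labels and the table spell it in more than 1 way. AAV is adeno-associated virus, whose serotype and cargo are not given in the sources used here. Concentrations are likewise not given, so every comparison is between single unnamed doses of 1 cell line.

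AP-1 is not 1 protein but a set of dimers. FOS proteins (Fos, Fosb, Fosl1, Fosl2) carry a leucine zipper that pairs with a JUN protein (Jun, Junb, Jund), and the pair binds DNA through adjoining basic regions. ATF3 and BATF also pair with JUN proteins and often restrain transcription, while MAFF is a small MAF protein that lacks an activation domain of its own. Many of these genes are immediate early genes, switched on without new protein synthesis by MAP kinases, serum response factor and CREB-type factors, and their mRNAs are short-lived. In microglia and macrophages, AP-1 acts with NF-kB on cytokine and chemokine genes after Toll-like receptor stimulation.

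Library totals ranged from 17364272 to 29259221 counts, and 9 of the 10 genes passed the filter on low counts that left 13116 genes for testing. Batf did not. All 10 microglia markers reached 1 CPM, a count scaled to library size, in every library, with a summed level between 1125 and 1207 CPM. All 6 astrocyte markers and all 6 endothelial and fibroblast markers were under 1 CPM in every library, as were 5 of 6 neuron markers and 5 of 6 oligodendrocyte markers. Mbp, the remaining oligodendrocyte marker, lay between 3.04 and 5.43 CPM. Levels below are CPM with library sizes adjusted by TMM factors and given as mean ± SD of 3 libraries. In bulk RNA, fewer cells of a type and less RNA per cell cannot be told apart. The labels do not say that libraries of a group came from separate cultures, so p-values measure only the spread between these libraries.

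Stretches of DNA just before a RefSeq start are shown for 4 of the genes described below. Fos stood apart from the rest, and Maff was at the top of the LPS response. Each is the 250 bases before the annotated start from RefSeq on GRCm38.p6, written 5′ to 3′ on the gene's strand, with capitals marking matches to the motifs searched. Fos lies at chr12:85473640-85473889 (+), Fosl2 at chr5:32136222-32136471 (+), Jun at chr4:95052223-95052472 (-) and the Maff start with a match to the cyclic AMP response element at chr15:79347270-79347519 (+).
Fos: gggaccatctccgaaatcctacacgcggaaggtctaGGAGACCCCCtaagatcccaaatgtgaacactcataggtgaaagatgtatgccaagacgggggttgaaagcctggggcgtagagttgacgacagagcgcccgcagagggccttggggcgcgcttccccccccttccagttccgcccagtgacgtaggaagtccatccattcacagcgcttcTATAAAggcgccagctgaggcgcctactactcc
Fosl2: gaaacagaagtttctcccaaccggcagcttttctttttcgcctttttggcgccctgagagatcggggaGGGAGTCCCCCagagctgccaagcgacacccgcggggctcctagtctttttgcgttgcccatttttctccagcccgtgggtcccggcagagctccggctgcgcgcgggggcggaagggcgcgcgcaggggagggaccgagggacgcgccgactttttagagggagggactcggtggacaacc
Jun: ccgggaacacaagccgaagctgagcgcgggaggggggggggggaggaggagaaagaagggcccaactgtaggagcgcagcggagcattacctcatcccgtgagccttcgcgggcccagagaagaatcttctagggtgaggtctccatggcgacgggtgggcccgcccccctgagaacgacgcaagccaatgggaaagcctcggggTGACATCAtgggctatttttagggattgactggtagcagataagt
Maff: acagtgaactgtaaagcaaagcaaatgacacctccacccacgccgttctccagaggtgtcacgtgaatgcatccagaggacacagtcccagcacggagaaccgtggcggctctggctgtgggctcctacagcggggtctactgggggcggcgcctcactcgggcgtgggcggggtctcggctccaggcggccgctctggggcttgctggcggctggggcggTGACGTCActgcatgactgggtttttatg
In Fos the capitals mark a match to the NF-kB site, on the other strand, and the TATA box TATAAA. The capitals in Fosl2 are 2 overlapping matches to the NF-kB site, 1 on each strand. Jun carries TGACATCA, the jun1-type element known from this promoter, and Maff carries the cyclic AMP response element TGACGTCA. RefSeq gave a window for 9 of the 10 genes and 3 for Maff, 11 windows in all, each running from 250 bases before to 50 bases after the RefSeq start. The Jund window ends before the GENCODE start of Jund used for the position below and does not adjoin it. The printed Fosl2 and Maff windows lie inside the GENCODE spans of these genes given below, downstream of the outermost GENCODE start. Both strands of the whole 300-base window were searched. The AP-1 element TGACTCA was in 0 of the 11 windows, against 5.2% of 32851 mouse promoter windows. TGACGTCA was in 1 (1.79% of all windows), TGACATCA in 2 (3.62%), TATAAA in 2 (13.6%), the NF-kB site in 4 (4.51%) and the serum response element (CArG box) in 0 (1.63%). TGACTCA, TGACGTCA, TGACATCA and TATAAA were matched as exact letters, so near matches were not counted, such as tgacgtag in the printed Fos sequence. Elements more than 250 bases before a start were not searched either. A count of 0, or a window without a match, therefore does not mean that these genes lack the element. A match describes letters only, and binding was not measured in this series.

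After LPS, 8 of the 9 tested genes rose and 1, Fos, fell, where 28.3% of all tested genes were called (13.8% higher, 14.5% lower). Both nanotube preparations raised nearly the whole set as well. (GT)6 SWCNT raised 8 of 9, with Fos not called, where 20.4% of all genes were called (9.9% higher, 10.5% lower). COOH SWCNT raised 9 of 9, against 20.0% of all genes called (9.39% higher, 10.6% lower). The median log2 fold change over the 9 genes was 1.15 for LPS, 1.37 for (GT)6 SWCNT and 0.77 for COOH SWCNT, while the median over all tested genes lay at -0.01, -0.02 and 0.00. DiBASC2 went the other way: 6 of 9 fell and 0 rose, where 5.47% of all genes were called (1.82% higher, 3.64% lower). Di-2-ANEPEQ lowered 1 of 9, with 3.08% of all genes called (0.686% higher, 2.39% lower), and AAV raised 1 of 9, with 5.0% called (1.84% higher, 3.16% lower). Fura-2 changed 0 of 9, with 0.252% called (0.0381% higher, 0.213% lower). The unadjusted p was under 0.05 for 1 of 9 with Fura-2 (Fosl2), and for 3 of 9 with Di-2-ANEPEQ and with AAV. Over all 13116 genes it was under 0.05 for 1411, 2161 and 2720 in that order. DESeq2's test called Fosl2 for Fura-2. A call here means an adjusted p under 0.05 in edgeR's quasi-likelihood test, fitted to all 24 libraries and adjusted over all 13116 genes. All comparisons against Control use the same 3 Control libraries.

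**Figure D1:**
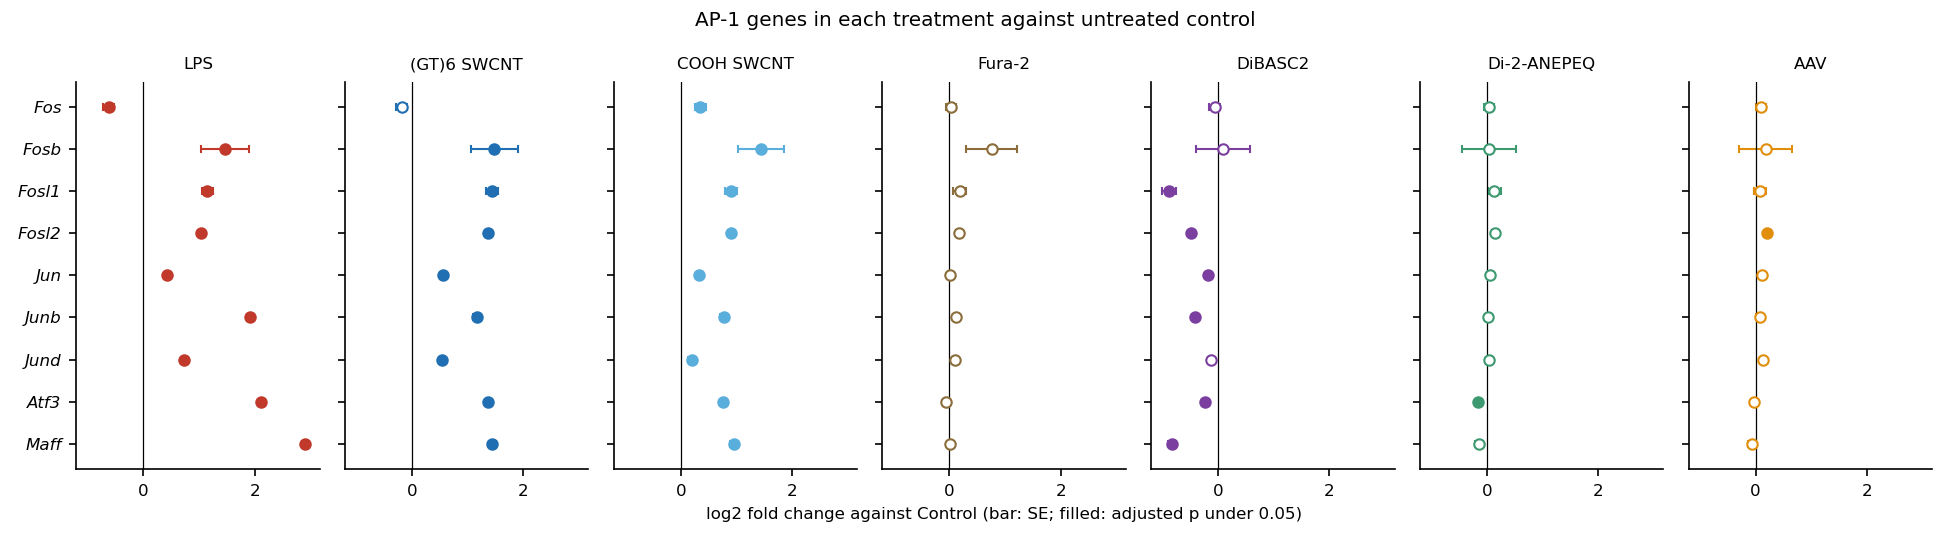
Log2 fold change of the 9 tested AP-1 genes (rows) in each treatment against Control (panels, 3 libraries a group); points are edgeR estimates, bars are their standard errors, and filled points have an adjusted p under 0.05. LPS spans -0.62 for Fos to 2.91 for Maff, both nanotube panels lie mostly to the right of 0, and DiBASC2 has 6 filled points to the left of 0.

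Within the FOS family, Fos behaved unlike the other 3. Fos, the founding immediate early gene of the family (chr12:85473890-85477273), was at 13.5, 14.0 and 10.8 CPM in the Control libraries. It was at 7.61, 8.30 and 8.98 CPM after LPS, all 3 below the lowest Control library, and fell by 0.62 ± 0.10 (SE) on the log2 scale (adjusted p = 8.44e-06). After COOH SWCNT it was at 16.5, 15.9 and 16.6 CPM, all above the highest Control library, a rise of 0.35 ± 0.09 (adjusted p = 0.0048). That call rested on Control replicate 3, the lowest Control library: without it the rise was 0.26 (adjusted p = 0.0553). After (GT)6 SWCNT, Fos was at 10.3, 11.6 and 12.01 CPM, a range that overlapped Control (log2 fold change -0.18, adjusted p = 0.203). In the order of the 8 group means, COOH SWCNT stood first and LPS last, each clear of its neighbour, and the 6 groups between them overlapped from one to the next.

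Fosl2 and Fosl1, which encode FRA2 and FRA1 and lack the strong activation domain of FOS, rose after LPS and after both nanotube preparations. Fosl2 (chr5:32135801-32157842) was at 55.3, 63.5 and 59.3 CPM in Control. It was at 122, 122 and 123 CPM after LPS, at 155, 152 and 153 CPM after (GT)6 SWCNT, and at 113, 113 and 109 CPM after COOH SWCNT. None of these libraries came near the Control range, and the 3 groups did not overlap each other. The log2 fold changes were 1.04 ± 0.04 (adjusted p = 1.47e-21), 1.37 ± 0.04 (2.14e-24) and 0.91 ± 0.04 (3.12e-18) in that order. Fosl1 (chr19:5447547-5455946) showed the same order from a lower base. Its Control libraries held 6.37, 6.81 and 6.35 CPM. After (GT)6 SWCNT it stood at 18.03, 19.0 and 15.6 CPM, after LPS at 13.8, 14.6 and 15.1 CPM, and after COOH SWCNT at 11.7, 13.2 and 11.8 CPM. These 3 groups again did not overlap, and the log2 fold changes were 1.43 ± 0.10, 1.15 ± 0.11 and 0.90 ± 0.11 (adjusted p = 7.29e-14, 2.46e-11 and 4.69e-08). Exons of Fosl1 share 1163 of their 2033 bases with those of Ccdc85b on the other strand. The strand setting of the counting is not given in the sources used here, so the Fosl1 level is uncertain. Ccdc85b lay between 7.57 and 12.5 CPM in the group means and was not called against Control in any of these 3 treatments (log2 fold changes -0.23, 0.17 and 0.15 for LPS, (GT)6 SWCNT and COOH SWCNT).

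Fosb (chr7:19302696-19310051), a FOS partner of JUN whose mRNA was at very low levels here, had 4 to 11 counts in the Control libraries and 14 to 32 after LPS or either nanotube. Its means were 0.362 ± 0.211 CPM in Control, 0.982 ± 0.189 after LPS, 0.9998 ± 0.225 after (GT)6 SWCNT and 0.961 ± 0.345 after COOH SWCNT. The log2 fold changes were 1.47 ± 0.43, 1.48 ± 0.42 and 1.44 ± 0.42 (adjusted p = 0.00752, 0.00996 and 0.0121). Only the COOH SWCNT range overlapped Control among these 3. All 3 calls rested on Control replicate 2, the library with 4 counts: without it the adjusted p was 0.0859, 0.103 and 0.111. The COOH SWCNT call was also lost without COOH SWCNT replicate 1 (adjusted p = 0.0901).

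Among the JUN genes, Junb changed most and Jun and Jund changed less. Junb (chr8:84974484-84978718), a JUN protein with a weaker activation domain than JUN, was at 98.5, 105 and 111 CPM in Control. It reached 358, 422 and 410 CPM after LPS, 241, 243 and 218 CPM after (GT)6 SWCNT, and 176, 186 and 174 CPM after COOH SWCNT. The 4 groups stood apart from each other with no overlap. LPS raised it by 1.92 ± 0.06 on the log2 scale, (GT)6 SWCNT by 1.16 ± 0.06 and COOH SWCNT by 0.77 ± 0.06 (adjusted p = 7.89e-26, 2.15e-18 and 1.01e-12). Exons of Junb share 173 bases with those of Prdx2, a peroxiredoxin gene on the other strand. Prdx2 lay between 140 and 160 CPM in all group means and fell by 0.11 after LPS and by 0.12 after COOH SWCNT (adjusted p = 0.048 and 0.0275), the opposite direction to Junb.

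Jun (chr4:95049034-95052222), whose protein carries a strong activation domain and is a substrate of JNK kinases, moved by less. Its Control libraries were at 61.5, 71.0 and 70.8 CPM. After LPS it was at 90.3, 94.3 and 90.2 CPM, after (GT)6 SWCNT at 99.7, 99.7 and 100.5 CPM, and after COOH SWCNT at 87.6, 86.2 and 80.8 CPM. All 9 of these libraries lay above the highest Control library, and the log2 fold changes were 0.43 ± 0.05, 0.56 ± 0.05 and 0.32 ± 0.05 (adjusted p = 2.85e-09, 8.36e-12 and 3.71e-06). Jund (chr8:70698949-70700616), the JUN gene that most cell types express without stimulation, was at 128, 123 and 122 CPM in Control. After LPS it was at 184, 216 and 217 CPM, and after (GT)6 SWCNT at 192, 185 and 168 CPM. These 2 groups overlapped each other and lay above Control, with log2 fold changes of 0.73 ± 0.06 and 0.55 ± 0.06 (adjusted p = 3.05e-13 and 1.05e-09). After COOH SWCNT it was at 138, 144 and 145 CPM, a rise of 0.19 ± 0.06 (adjusted p = 0.013) that was no longer called once trends with gene length and GC content were removed (0.08, adjusted p = 0.237). Junos and Gm11175, which overlap Jun and Jund on the other strand, had means under 0.7 CPM in every group.

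Atf3, Maff and Batf, whose proteins lack the activation domain of JUN or FOS or often act as repressors, included the largest changes of the set. Maff (chr15:79346621-79359076) was at 27.1, 27.6 and 28.5 CPM in Control and at 189, 220 and 216 CPM after LPS. The log2 fold change of 2.91 ± 0.06 (7.52-fold, adjusted p = 6.04e-31) was the 82nd highest of the 13116 tested genes. The nanotube groups were intermediate, at 74.6, 73.9 and 77.9 CPM for (GT)6 SWCNT and 53.6, 51.7 and 56.1 CPM for COOH SWCNT, with no overlap between any of these groups. Their log2 fold changes were 1.44 ± 0.06 and 0.96 ± 0.06 (adjusted p = 3.57e-20 and 3.69e-14). Atf3 (chr1:191170296-191218039), a stress-inducible gene described in macrophages as a brake on Toll-like receptor responses, was at 97.6, 101 and 95.3 CPM in Control. It was at 403, 432 and 443 CPM after LPS, at 254, 259 and 247 CPM after (GT)6 SWCNT, and at 160, 169 and 170 CPM after COOH SWCNT. The groups did not overlap, and the log2 fold changes were 2.12 ± 0.04, 1.37 ± 0.04 and 0.76 ± 0.05 (adjusted p = 9.61e-31, 7.79e-24 and 1.23e-15).

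Batf (chr12:85686669-85709087), a JUN partner best known from lymphocytes and dendritic cells, was close to the limit of detection. The LPS libraries held 9, 7 and 15 counts, and no other library held more than 4. Control held 1, 1 and 0 counts. Summed over the libraries, LPS had 31 counts against 2 in Control, a ratio of 15.5 at equal depth with an exact 95% interval of 3.95 to 134 that covers counting error only. Fitted without the filter on low counts, Batf was called in LPS against Control (adjusted p = 0.00439), in (GT)6 SWCNT against LPS (0.0104) and in COOH SWCNT against LPS (0.000403), with LPS the higher group each time. In that fit (GT)6 SWCNT and COOH SWCNT against Control were not called (adjusted p = 1 and 0.905).

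**Figure D2:**
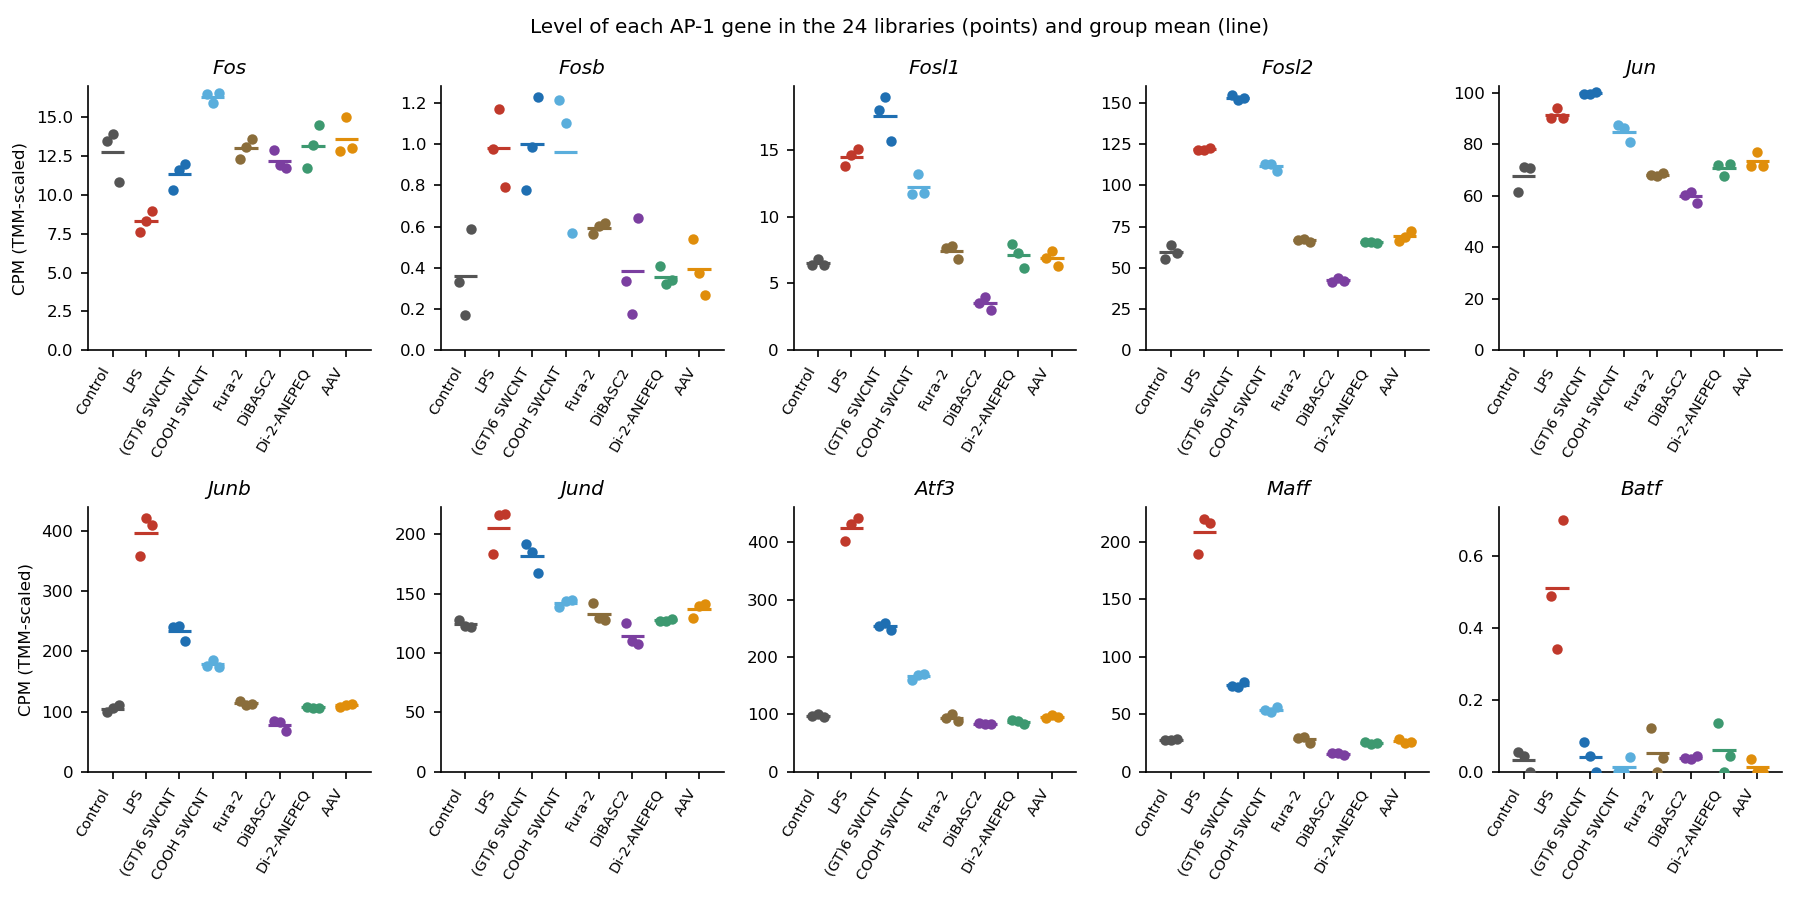
Level of the 10 AP-1 genes in all 24 libraries, in CPM scaled by TMM factors, with 1 panel a gene and linear axes from 0; points are libraries and lines are means of 3. Junb, Jund, Atf3, Maff and Batf have their highest mean after LPS, Fosl1, Fosl2 and Jun after (GT)6 SWCNT and Fos after COOH SWCNT, and the DiBASC2 points of Fosl1, Fosl2, Junb, Atf3 and Maff lie below all Control points.

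Set directly against LPS, the (GT)6 SWCNT group differed in 8 of 9 genes, with 4 higher and 4 lower, where 21.6% of all genes were called (9.63% higher, 11.9% lower). Maff (-1.47 ± 0.05), Junb (-0.76 ± 0.06) and Atf3 (-0.75 ± 0.04) were lower than in LPS by margins several times their standard errors (adjusted p = 6.59e-23, 5.47e-14 and 2.96e-17). Fos (0.44 ± 0.10, adjusted p = 0.00164) and Fosl2 (0.33 ± 0.04, adjusted p = 2.63e-08) were higher than in LPS. For Fos this set a level near Control beside a lowered one, whereas Fosl2 had risen from Control in both groups. The other 3 calls were small and depended on single libraries. Fosl1 (0.28, adjusted p = 0.0226) lost its call when (GT)6 SWCNT replicate 1 or 2 or LPS replicate 1 or 2 was left out (adjusted p up to 0.149), and in DESeq2's test (0.0516). Its neighbour Ccdc85b was also higher in this comparison (0.40, adjusted p = 0.0147), and its part in the Fosl1 value was not tested. Jund (-0.18, adjusted p = 0.0158) lost its call without (GT)6 SWCNT replicate 3 or LPS replicate 2 or 3 (up to 0.153). Jun (0.13, adjusted p = 0.0495) lost it in 5 of the 6 fits without 1 library, all but that without LPS replicate 2 (up to 0.129), and in 5 of 8 other alternatives, among them the fit with a replicate block (0.0537).

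COOH SWCNT differed from LPS in 7 of 9 genes, with 6 lower and 1, Fos, higher, where 37.8% of all genes were called (18.1% higher, 19.7% lower). Fos showed a log2 difference of 0.97 ± 0.10 (adjusted p = 2.67e-10), between a group above Control and one below it. Maff (-1.95 ± 0.06), Atf3 (-1.36 ± 0.04), Junb (-1.15 ± 0.06) and Jund (-0.53 ± 0.06) were lower than in LPS (adjusted p = 1.27e-26, 4.61e-25, 2.84e-19 and 7.03e-10). Fosl2 (-0.13, adjusted p = 0.0101) and Fosl1 (-0.25, adjusted p = 0.0331) were lower by little. Fosl2 lost its call without COOH SWCNT replicate 3 (0.0632) and with upper-quartile factors (0.13). Fosl1 lost it without COOH SWCNT replicate 1 or 3 or LPS replicate 2 or 3 (up to 0.116), with upper-quartile factors (0.0876), with no filter on low counts (0.0569) and in DESeq2's test (0.0599), and Ccdc85b moved the other way (0.38, adjusted p = 0.0111). Jun was not called (-0.11, adjusted p = 0.0616, 95% interval -0.21 to -0.01), but was called lower with DESeq2 size factors (0.0419), in DESeq2's test (just under the threshold, 0.05 after rounding), with length and GC trends removed (0.00026) and without COOH SWCNT replicate 1 (0.0421).

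The 2 nanotube preparations also differed from each other, in 8 of 9 genes, where 21.4% of all genes were called (11.9% higher, 9.48% lower). (GT)6 SWCNT was the higher group in 7, led by Atf3 (0.61 ± 0.04), Fosl1 (0.53 ± 0.09), Maff (0.49 ± 0.06) and Fosl2 (0.46 ± 0.04), with adjusted p = 1.03e-12, 4.49e-05, 7.47e-08 and 8.41e-11. Junb (0.39), Jund (0.35) and Jun (0.24) followed. Fos ran against the rest at -0.54 ± 0.09 (adjusted p = 4.72e-05), so that the preparation with the higher level of 7 AP-1 genes had the lower level of Fos. All 8 calls held in every alternative that was run. Fosb did not differ by a detectable amount in any comparison among LPS, (GT)6 SWCNT and COOH SWCNT (log2 differences 0.00, -0.03 and 0.03, each with a standard error of 0.34 or 0.35).

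**Figure D3:**
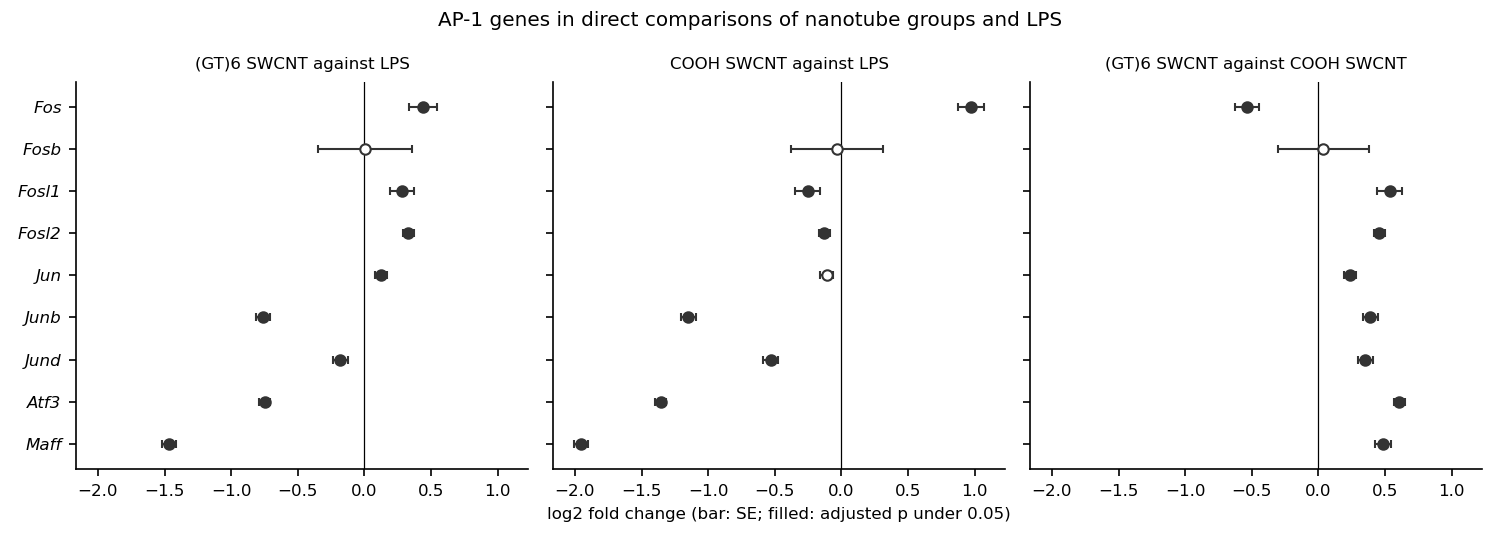
Log2 fold change of the 9 tested AP-1 genes (rows) in 3 direct comparisons named above the panels ( 3 libraries a group); bars are standard errors and filled points have an adjusted p under 0.05. Maff lies farthest to the left in both panels against LPS (-1.47 and -1.95), and Fos takes the opposite side from Maff in all 3 panels.

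DiBASC2 lowered Fosl1, Maff, Fosl2, Junb, Atf3 and Jun. Fosl1 was at 3.56, 4.01 and 2.995 CPM against 6.35 to 6.81 CPM in Control, and fell by 0.88 ± 0.13 on the log2 scale (adjusted p = 1.26e-05). Maff was at 16.1, 16.2 and 14.2 CPM against 27.1 to 28.5 CPM in Control, and fell by 0.84 ± 0.07 (adjusted p = 8.06e-10). These were the 63rd and 73rd lowest log2 fold changes of the 13116 tested genes in that comparison, and no DiBASC2 library reached the Control range of either gene. Fosl2 was at 41.6, 43.9 and 41.9 CPM and fell by 0.49 ± 0.05, and Junb was at 84.3, 82.4 and 68.4 CPM and fell by 0.42 ± 0.06 (adjusted p = 2.47e-09 and 1.21e-05). Both lay below all Control libraries. Atf3 fell by 0.24 ± 0.05 (adjusted p = 0.000985) to 84.7, 82.3 and 82.2 CPM. Jun fell by 0.18 ± 0.05 (adjusted p = 0.0192) with ranges that overlapped Control. The Jun call was lost without Control replicate 2, Control replicate 3 or DiBASC2 replicate 3 (adjusted p up to 0.16), in a fit of only the 2 groups (0.0589) and with upper-quartile factors (0.0594). Fos (-0.07, 95% interval -0.27 to 0.13) and Jund (-0.12, 95% interval -0.24 to 0.00) were not called, though Jund was called lower with length and GC trends removed (adjusted p = 0.0176). Ccdc85b, the neighbour of Fosl1, rose by 0.39 after DiBASC2 (adjusted p = 0.0345), the opposite direction to Fosl1.

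Di-2-ANEPEQ gave no such pattern, and the difference between the 2 dyes was itself called. DiBASC2 was lower than Di-2-ANEPEQ in 5 of 9 genes, where 8.95% of all genes were called (3.47% higher, 5.48% lower). Fosl1 differed by -1.01 ± 0.12, Maff by -0.70 ± 0.07, Fosl2 by -0.62 ± 0.04, Junb by -0.44 ± 0.06 and Jun by -0.24 ± 0.05 (adjusted p = 2.82e-07, 2e-08, 5.17e-12, 2.81e-06 and 0.000856). The Fosl1 value was the 32nd lowest of all tested genes. Atf3 (-0.07, 95% interval -0.17 to 0.03) and Fos (-0.10, 95% interval -0.29 to 0.09) were not called between the dyes, and both intervals include 0. Jund was not called (-0.15, adjusted p = 0.0804, 95% interval -0.27 to -0.03), though it was called without DiBASC2 replicate 1 (adjusted p = 0.0157), with length and GC trends removed (0.00672) and with no filter on low counts (0.0114). The concentrations of the dyes are not known to match, so the values compare these 2 exposures as they were made.

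Against Control, Di-2-ANEPEQ lowered Atf3, with libraries at 90.2, 88.2 and 83.1 CPM (-0.17 ± 0.05, adjusted p = 0.0377). All 3 lay below the Control range, but the call was lost in 5 of the 6 fits without 1 library, all but that without Di-2-ANEPEQ replicate 1 (adjusted p up to 0.213). AAV raised Fosl2, with libraries at 66.3, 68.7 and 72.1 CPM, all above Control (0.21 ± 0.04, adjusted p = 0.00352), and this call held in all 6 fits without 1 library (up to 0.0399). Fosl2 also had its libraries above the Control range with Fura-2 (67.1, 67.6 and 65.8 CPM) and Di-2-ANEPEQ (65.9, 65.7 and 65.0 CPM). Those log2 fold changes, 0.17 ± 0.04 and 0.14 ± 0.04, were not called (adjusted p = 0.084 and 0.0724) but were called without Control replicate 2, the highest Control library (0.0198 and 0.0186), and in DESeq2's test (0.0411 and 0.0437). For Fura-2 no other gene came close to a call. Its Fosl1 and Junb libraries also lay above the Control range (adjusted p = 0.592 and 0.475). The same held for Jun and Jund with AAV (adjusted p = 0.155 and 0.154), while Maff with Di-2-ANEPEQ lay below that range (0.303). The share of all genes with ranges clear of Control is not given here. With Fosb set aside, the 95% intervals of the log2 fold changes for Fura-2 lay between -0.18 for Fos and 0.43 for Fosl1. The Fosb interval was wide, at -0.21 to 1.72.

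Scaled to exon length merged over all annotated transcripts, which allows a rough comparison between genes, the make-up of the set differed between groups. The merged length exceeds that of the longest transcript for Junb (2301 against 1809 bases), Atf3 (2154 against 1984) and Fosl2 (9680 against 6537). The order of genes at similar levels, such as Atf3 and Junb, depends on which length is used. In Control the summed level of the 10 genes was 212 ± 2.89 CPM per kb of exon, and Jund was the most abundant at 74.6 CPM per kb, followed by Junb at 45.6 and Atf3 at 45.4. After LPS the sum was 626 ± 42.6 CPM per kb, and Atf3 stood first at 198, followed by Junb at 172 and Jund at 123. The sum was 418 ± 15.3 after (GT)6 SWCNT, 312 ± 5.69 after COOH SWCNT and 177 ± 10.7 after DiBASC2. Within the JUN family, Junb made up 32.2% ± 1.38 of the length-scaled level in Control and 53.1% ± 0.345 after LPS, while Jund went from 52.8% ± 2.24 to 37.97% ± 0.642. Both nanotube groups lay between, with Junb at 42.1% ± 0.506 for (GT)6 SWCNT and 40.98% ± 0.703 for COOH SWCNT. DiBASC2 had less Junb, at 28.02% ± 1.51. Within the FOS family, Fos made up 36.5% ± 3.14 in Control, 15.0% ± 0.824 after LPS, 16.4% ± 1.37 after (GT)6 SWCNT, 28.2% ± 1.13 after COOH SWCNT and 45.7% ± 1.81 after DiBASC2. Its highest share was thus in DiBASC2, where Fos itself was not called and Fosl1 and Fosl2 had fallen. These shares are descriptions of 3 libraries a group, with no test. They depend on the exon lengths used and, for Fosl1, on how reads in the overlap with Ccdc85b were counted.

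**Figure D4:**
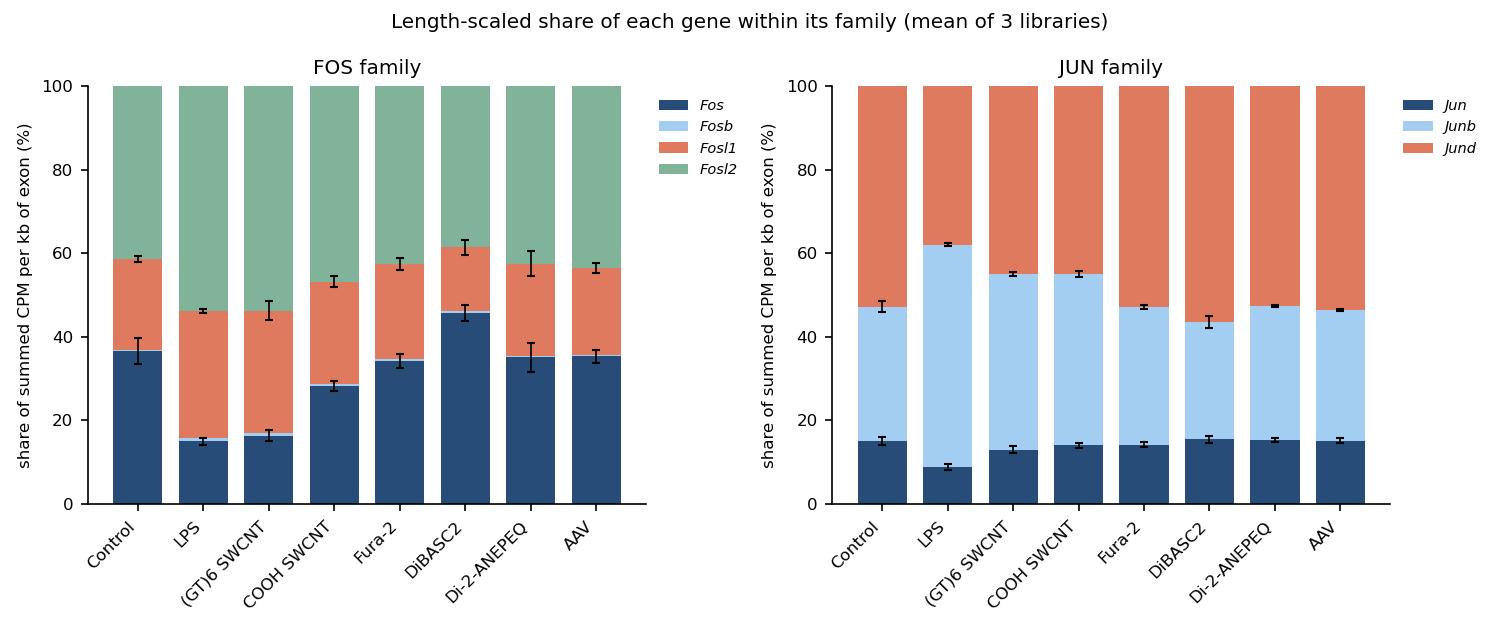
Share of each gene in the summed CPM per kb of exon of the FOS family (left) and the JUN family (right), in percent, as means of 3 libraries for the 8 groups; bars at the segment edges are the SD of the shares of Fos, Fosl1, Jun and Junb. The Fos segment is smallest after LPS (15.0%) and largest after DiBASC2 (45.7%), and the Junb segment is largest after LPS (53.1%).

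Patterns across the 8 groups were compared by the root mean square difference of group means on the log2 scale, after each gene's own mean had been subtracted. Fosl1 and Fosl2 followed each other with a difference of 0.15, Jun and Jund with 0.11, and Junb and Atf3 with 0.16. The members themselves were then left out of the 9493 genes with a mean of at least 5 CPM. Among the rest, Junb was closest to Csf1 (0.06) and Itga5 (0.10), and Atf3 to Csf1 (0.12) and Kdm6b (0.14). Csf1 encodes macrophage colony-stimulating factor and Kdm6b a histone H3 demethylase. Maff was closest to Traf1 (0.13), a TNF receptor adaptor, and Nlrp3 (0.14), an inflammasome sensor. Fosl2 was closest to Gprc5a (0.09) and Zswim4 (0.12), Fosl1 to Bcar1 (0.14) and Osm (0.15), which encodes the cytokine oncostatin M. Fosb, with its few counts, was closest to Gm38357 (0.19) and Plekhg2 (0.21). These are descriptions over 8 means from the same libraries.

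Other genes of the bZIP class, to which AP-1 belongs, moved in both directions. Of 22 tested, LPS raised 10 and lowered 2 (median log2 fold change 0.20), (GT)6 SWCNT raised 8 and lowered 3 (0.12), COOH SWCNT raised 5 and lowered 2 (0.02), and DiBASC2 raised 2 and lowered 4 (-0.06). Over all tested genes, 28.3%, 20.4%, 20.0% and 5.47% were called in these 4 comparisons. Cebpd, a C/EBP factor of the acute phase response, went from 10.2 ± 0.656 to 69.9 ± 7.57 CPM after LPS, a rise of 2.77 ± 0.10. Jdp2, which encodes a JUN dimerization partner that represses AP-1, went from 28.7 ± 1.82 to 88.3 ± 6.65 CPM, a rise of 1.62 ± 0.07 (adjusted p = 2.54e-23 and 1.42e-21). Maf, a factor of macrophage differentiation, ran opposite to Maff in 4 treatments. After LPS, the (GT)6 and the carboxylated nanotubes it fell by 0.59, 0.78 and 0.30, and after DiBASC2 it rose by 0.44 (adjusted p = 1.56e-05, 2.06e-07, 0.0263 and 0.00148), though its call in COOH SWCNT was lost in 4 of the 6 fits without 1 library. Mafk, the other small MAF gene named here, rose by 0.63 after (GT)6 SWCNT (adjusted p = 1.06e-11) and by 0.36 after COOH SWCNT (4.09e-06). It fell by 0.22 after DiBASC2 (adjusted p = 0.0161), a call lost in 3 of the 6 fits without 1 library. Fura-2, Di-2-ANEPEQ and AAV changed 0 of the 22 in edgeR's test (0.252%, 3.08% and 5.0% of all genes called). In that order, 2, 6 and 8 of the 22 had an unadjusted p under 0.05, beside 1411, 2161 and 2720 of all 13116 genes. DESeq2's test called 0, 0 and 3, and its share over all genes is not given here.

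Kinases and factors that act above AP-1 in the MAP kinase and serum response pathways were called in both directions after LPS and (GT)6 SWCNT. Of 23 tested, LPS raised 5 and lowered 6 (median 0.05), (GT)6 SWCNT raised 5 and lowered 2 (0.02), and COOH SWCNT raised 6 and lowered 0 (0.03). The shares called over all genes, 28.3%, 20.4% and 20.0% in that order, are the background to these counts. DiBASC2 lowered 1, Srf (5.47% of all genes called), although with upper-quartile factors 1 gene was higher and 1 lower. Srf, which encodes serum response factor, went from 106 ± 1.09 CPM in Control to 174 ± 9.90 after (GT)6 SWCNT, 139 ± 1.73 after COOH SWCNT and 83.4 ± 2.96 after DiBASC2. Its log2 fold changes were 0.71 ± 0.04, 0.39 ± 0.04 and -0.35 ± 0.04 (adjusted p = 3.08e-16, 9.94e-09 and 5.81e-07). In LPS the largest rise on this list was Map3k8, a kinase that feeds Toll-like receptor signals into the ERK pathway, from 4.09 ± 0.213 to 17.1 ± 0.334 CPM (2.06 ± 0.12, adjusted p = 1.93e-16). Fura-2, Di-2-ANEPEQ and AAV changed 0 of the 23 in edgeR's test, beside 0.252%, 3.08% and 5.0% of all genes called. In that order, 3, 0 and 2 of the 23 had an unadjusted p under 0.05, beside 1411, 2161 and 2720 of all 13116 genes. DESeq2's test called 0, 0 and 1, and its share over all genes is not given here.

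Dual-specificity phosphatases, which switch MAP kinases off, were called in most cases after LPS and the nanotubes. Of 8 tested, LPS raised 7 and lowered 1 (median 1.18), (GT)6 SWCNT raised 6 and lowered 1 (1.02), COOH SWCNT raised 6 (0.70) and DiBASC2 lowered 5 (-0.26), beside 28.3%, 20.4%, 20.0% and 5.47% of all genes called. Dusp1 rose from 9.53 ± 1.48 to 31.1 ± 1.43 CPM after (GT)6 SWCNT and 21.9 ± 2.13 after COOH SWCNT (1.71 ± 0.09 and 1.20 ± 0.10, adjusted p = 2.14e-17 and 3.62e-12). Dusp6, which acts on ERK, was the exception in LPS and fell by 2.18 ± 0.14, from 10.2 ± 1.23 to 2.27 ± 0.575 CPM (adjusted p = 1.04e-15). Dusp2 fell by 0.62 ± 0.06 after DiBASC2 (adjusted p = 1.55e-08). Fura-2, Di-2-ANEPEQ and AAV changed 0 of the 8 in edgeR's test, beside 0.252%, 3.08% and 5.0% of all genes called. In that order, 1, 0 and 1 of the 8 had an unadjusted p under 0.05, beside 1411, 2161 and 2720 of all 13116 genes. DESeq2's test called 0 in each.

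Of 21 tested genes that have been described as AP-1 targets, LPS raised 14 and lowered 1 (median 0.40), (GT)6 SWCNT raised 15 and lowered 1 (1.24), COOH SWCNT raised 12 and lowered 0 (0.64), and DiBASC2 raised 0 and lowered 11 (-0.29), where the shares of all genes called were 28.3%, 20.4%, 20.0% and 5.47%. Di-2-ANEPEQ lowered 2, where 3.08% of all genes were called (2.39% lower). Fura-2 and AAV changed 0 in edgeR's test, beside 0.252% and 5.0% of all genes called. For Fura-2 and AAV, 2 and 3 of the 21 had an unadjusted p under 0.05, beside 1411 and 2720 of all 13116 genes. DESeq2's test called 0 and 1 of the 21, and its share over all genes is not given here. Many of these genes answer to NF-kB as well. The chemokine gene Cxcl2 went from 12.99 ± 1.97 CPM in Control to 1175 ± 83.1 after LPS, 90.7 ± 5.53 after (GT)6 SWCNT, 36.04 ± 0.767 after COOH SWCNT and 4.18 ± 0.663 after DiBASC2. Its log2 fold changes were 6.51 ± 0.08, 2.81 ± 0.08, 1.48 ± 0.09 and -1.62 ± 0.13 (adjusted p = 3.68e-38, 1.26e-24, 3.32e-15 and 1.73e-10). Ccl2, another chemokine gene, fell by 0.72 ± 0.07 after DiBASC2 (adjusted p = 2.87e-09). Ccnd1, the cyclin D1 gene, was the 1 gene lowered in both LPS (-0.67 ± 0.04) and (GT)6 SWCNT (-0.33 ± 0.04), with adjusted p = 7.57e-16 and 9.47e-08.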

How the data were processed

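Poly-A RNA-seq of SIM-A9 cells was used in 8 groups of 3 libraries, grouped by the sample titles. The deposited file is a single table of unnormalized counts, with a row for each of 54838 Ensembl identifiers. Per the submitters' processing notes, STAR 2.5.4b and GRCm38.p6 were used. The counting tool, strand setting and annotation release are not given in the sources used here, so values of overlapping genes are uncertain. Symbols, exon lengths and positions came from GENCODE M21 (GRCm38); 53947 identifiers matched with their version, 54809 without it, and 29 did not match. All columns were assigned to a sample. Promoter windows came from RefSeq (GRCm38.p6), which gave none for Fosl1.

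Counts were filtered with edgeR's filterByExpr, scaled by TMM factors and fitted in 1 quasi-likelihood model of all 24 libraries with a mean per group (edgeR 4.0.16 in R 4.3.3, 16 residual degrees of freedom). Each of 11 contrasts was tested two-sided with Benjamini-Hochberg adjustment over 13116 genes. The biological coefficient of variation was 4.12%. Standard errors are the size of the log2 fold change divided by the square root of F, and 95% intervals use a t distribution with 16 degrees of freedom. The script was tested on simulated counts.

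The members, the other gene lists and the alternatives were chosen with earlier results of these data known. All 10 members were named whatever their values. From each other list, up to 2 highest and 2 lowest called log2 fold changes in LPS, (GT)6 SWCNT, COOH SWCNT and DiBASC2 against Control could be named, and their values in the other treatments follow the same rule. For each member called with a log2 fold change of at least 1 in size, the 2 genes most alike in pattern were named, from group means of log2(CPM + 0.1). Ddit3 was left out of the lists because its symbol sits on several identifiers. The alternatives tried were upper-quartile factors, DESeq2 size factors, a mean of at least 50 counts, no filter on low counts, a replicate block, a fit of only the 2 groups, removal of trends with length and GC content, DESeq2's test (1.42.0), and leaving out each of the 6 libraries of a contrast.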

Additional observations from a re-analysis of the deposited data

How the results depend on the processing

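The 9 tested genes in 11 comparisons gave 99 values, of which 62 were called. Of these, 50 kept their call in every alternative run, 12 lost it in at least 1, and 0 changed direction; the 12 are named beside their values above. Of the 37 uncalled values, 6 were called in at least 1 alternative. With DESeq2's test the number of genes called rose from 0 to 1 for Fura-2 and from 1 to 2 for Di-2-ANEPEQ, Fosl2 being the added gene each time. For AAV it rose from 1 to 2 with no filter on low counts, with Jund added (adjusted p = 0.0458). Leaving out 1 library gave 0 to 1 for Fura-2 and also 0 to 1 for Di-2-ANEPEQ. The cause of these differences was not tested. The replicate numbers are only part of the titles, so whether same-numbered libraries were handled together is not known. Correlations of same-numbered deviations lay between -0.104 and 0.0696, and in 0 of 11 comparisons was every correlation over 0.1. These correlations rest on 3 libraries a group and include counting error, so they cannot decide whether the libraries were paired. The fit with a replicate block changed 1 call, that of Jun in (GT)6 SWCNT against LPS (adjusted p = 0.0537), and no other. The number of all genes called in the quiet groups moved with single libraries, from 33 to between 0 and 106 for Fura-2, which bears on how a count of 0 members is read. At unadjusted p under 0.05, 1411 of 13116 genes passed for Fura-2. Depth limits Fosb and Batf, with at most 32 and 15 counts in a library.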
